A study of Mus musculus with 4 samples.

Results

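Long intergenic noncoding RNAs (lincRNAs) that were abundant in mouse kidney are described here in cisplatin and saline animals. They are the genes whose biotype in the deposited count table is lincRNA and whose counts, summed over all 4 libraries, reached 300. Malat1, Neat1, Meg3, H19, Pvt1, Miat, Gas5 and every Snhg gene were left out by name. Chosen by these summed counts were 159 of 29190 genes. The table held 1861 lincRNA genes, of which 1695 had fewer than 300 counts and 7 were left out by name. The sum over both groups chose these genes, so their abundance is no result. It also lets in genes through a single group: 31 reached 300 counts in the cisplatin libraries alone and not in the saline libraries, 28 the reverse, 52 in each group by itself, and 48 only when the groups were added. Just inside the minimum stood Gm26659, 4732463B04Rik and D130017N08Rik. The nearest genes outside it were 9330175E14Rik with 298 counts, Gm12576 with 297 and 0610043K17Rik with 292, at log2 fold changes of 3.23, -0.08 and -1.74.

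The animals were male C57 mice aged 8 weeks, and 18 of them were divided into 3 groups, per the labels. One group of libraries came from kidneys after cisplatin at 30 mg/kg, taken at 24 or 48 h (the labels do not say which), and the other from kidneys after physiological saline. The drug, a platinum compound, forms crosslinks in DNA and is toxic to kidney tubules. Each group had 2 libraries of total RNA depleted of ribosomal RNA. Library totals ran from 20662475 to 27122403 counts. The comparison asks which of these transcripts differ in level after cisplatin.

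LincRNAs are transcribed by RNA polymerase II from DNA between protein-coding genes, and most are spliced and polyadenylated like mRNAs but carry no long open reading frame. Known members act in several ways: some regulate chromatin or a nearby gene, some bind miRNAs or proteins, some are precursors of miRNAs or encode a small peptide, and for many no function is known. A frequent arrangement is the divergent pair, in which a noncoding RNA and a coding gene start close together and are read in opposite directions. Many lincRNAs are restricted to a tissue or cell type.

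Promoter windows are shown first for 4 genes to which the results return: Gm13056, 5830416P10Rik and 3300005D01Rik, the rises of largest fold with a usable RefSeq entry, and D630029K05Rik, the one with the highest level among the 14 largest falls apart from Yam1. Each window holds 300 bases, from 250 before to 50 after the start in the RefSeq table (GRCm38.p6), written in the direction of transcription. Gm13056 lies at chr4:141278189-141278488 on the plus strand, 5830416P10Rik at chr19:53464747-53465046 on the minus strand, 3300005D01Rik at chr17:5798407-5798706 on the plus strand and D630029K05Rik at chr10:116964490-116964789 on the plus strand. Capitals mark TGANTCA (the AP-1 motif) in 5830416P10Rik and 3300005D01Rik, CACGTG (the E-box) in 3300005D01Rik, and overlapping matches of TATAAA in D630029K05Rik.
Gm13056: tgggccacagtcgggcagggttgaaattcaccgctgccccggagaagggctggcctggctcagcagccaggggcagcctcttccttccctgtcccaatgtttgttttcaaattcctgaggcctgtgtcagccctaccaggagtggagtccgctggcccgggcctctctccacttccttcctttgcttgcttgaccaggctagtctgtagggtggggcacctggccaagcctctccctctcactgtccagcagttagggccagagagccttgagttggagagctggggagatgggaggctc
5830416P10Rik: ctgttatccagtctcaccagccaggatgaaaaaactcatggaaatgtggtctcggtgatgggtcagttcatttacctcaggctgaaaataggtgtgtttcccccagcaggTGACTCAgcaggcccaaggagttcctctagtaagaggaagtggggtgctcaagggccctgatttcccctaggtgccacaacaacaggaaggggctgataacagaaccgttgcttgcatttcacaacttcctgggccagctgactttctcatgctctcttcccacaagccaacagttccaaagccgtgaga
3300005D01Rik: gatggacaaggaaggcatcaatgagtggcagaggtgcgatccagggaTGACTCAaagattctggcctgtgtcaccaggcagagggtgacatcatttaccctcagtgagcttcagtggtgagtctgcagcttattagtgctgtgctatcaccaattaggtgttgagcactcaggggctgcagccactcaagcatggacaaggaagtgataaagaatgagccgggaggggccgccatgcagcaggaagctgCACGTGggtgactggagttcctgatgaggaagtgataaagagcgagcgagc
D630029K05Rik: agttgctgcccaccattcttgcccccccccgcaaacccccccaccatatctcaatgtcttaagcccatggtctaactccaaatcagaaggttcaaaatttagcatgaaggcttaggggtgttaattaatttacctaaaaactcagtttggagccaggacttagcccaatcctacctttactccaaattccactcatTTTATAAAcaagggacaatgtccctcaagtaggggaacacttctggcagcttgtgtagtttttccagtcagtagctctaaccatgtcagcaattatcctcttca
Both strands were searched for these motifs, for CAAAGTCCA (the HNF4 motif), and for the NF-kB and HNF1 motifs and the p53 response element. Of the 159 genes, 84 had an entry in the table and 67 an entry whose start lay within 1000 bases of the annotated one. TGANTCA stood in 8 of these 67 windows (11.9%) against 7.81% of all 32851 windows, CACGTG in 12 (17.9%) against 7.15%, and TATAAA in 7 (10.4%) against 13.6%. The windows with TGANTCA belonged to 3 of 22 genes called higher and 2 of 30 called lower, and those with CACGTG to 4 and 5. No window of the 67 held the letters of the other motifs, which are found in 0.475% of all windows or less.

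As a list, the abundant lincRNAs changed in both directions and about as often as the rest of the transcriptome. After cisplatin 61 (38.4%) were higher, 59 (37.1%) were lower, 75.5% in all, and 39 did not pass (edgeR's quasi-likelihood test, Benjamini-Hochberg adjusted p under 0.05 over all genes tested). Of all 17419 genes tested, 37.2% were called higher and 36.4% lower, 73.6% in all. Among the 12584 with at least 300 counts the shares were 36.7% and 44.0%, 80.7% in all. Normalised abundance (CPM, the count relative to the library total, scaled by the trimmed mean of M values, TMM) did not overlap between groups in 141 of the 159 (88.7%), against 86.3% of all genes tested and 89.9% of those with at least 300 counts. Log2 fold changes of cisplatin over saline ran from -5.22 to 5.36 with a median of 0.07, beside 0.04 over all genes tested and -0.07 over those with at least 300 counts.

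Changes of at least 2-fold were found in 33 lincRNAs that rose (20.8%) and 36 that fell (22.6%). The shares were 19.2% and 16.1% over all genes tested, and 13.9% and 17.1% over genes of at least 300 counts. The median size of the change was 0.80 in log2 units, against 0.63 for genes of at least 300 counts. In the 52 lincRNAs that reached 300 counts in each group by itself it was 0.40, with 19 higher (36.5%) and 16 lower (30.8%). The share called was 67.3%, against 80.7% of genes with at least 300 counts summed over both groups. Requiring the minimum in each group removes lincRNAs that are low in a single group, so a smaller median is built in. The genes behind the 0.63 were not held to that rule. A lincRNA whose counts were far above the minimum in a single group and low in the other had to differ between them, so the counts over the whole list are a description. Of the 1695 lincRNA genes below the minimum, 401 were tested, with 151 higher (37.7%) and 65 lower (16.2%), and a median of 0.48. The shares over all genes tested were 37.2% and 36.4%. These 401 passed edgeR's expression filter, applied before TMM scaling, which a gene can pass through its higher group alone. Their median is thus a description too.

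The split by direction depends on the scaling. With library size alone 85 were higher and 39 lower, and the median over all genes tested moved by 0.36. With limma-trend on FPKM (fragments scaled by transcript length and library size) the numbers were 75 and 41 at a pseudocount of 0.1, and 77 and 43 at a pseudocount of 1.

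**Figure D1:**
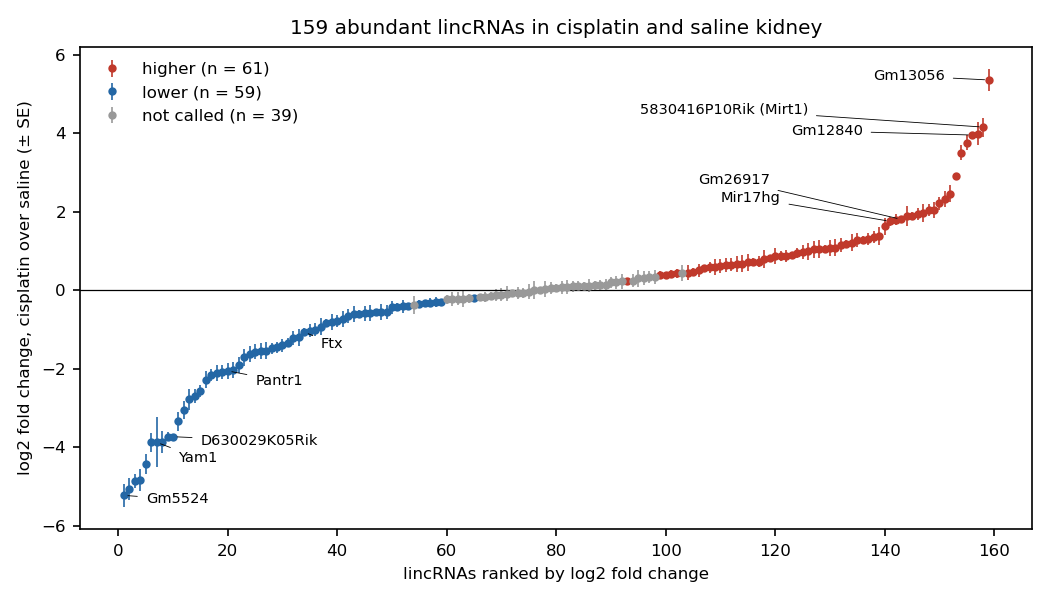
The 159 lincRNAs ranked by log2 fold change of cisplatin over saline (points, with standard error bars; n = 2 libraries a group), coloured by call. The curve passes through 0 near its middle, with 61 genes higher, 59 lower and 39 not called, and Yam1 has the widest error bar.

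**Figure D2:**
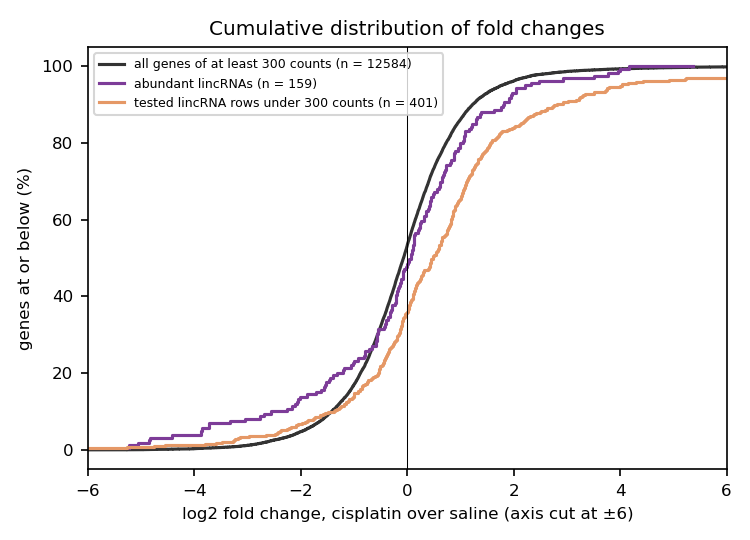
Cumulative share of genes (y axis, %) at or below a log2 fold change (x axis) for the 159 lincRNAs, the 401 tested lincRNA genes under 300 counts, and the 12584 genes of at least 300 counts. The abundant lincRNAs lie above the black curve at strong falls and below it at strong rises. The curve of the rarer lincRNAs lies further right (median 0.48). It holds only those that passed the expression filter, which a gene can pass through its higher group alone.

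Most of the counts came from 2 neighbouring genes at a ribosomal RNA sequence on chromosome 17. Yam1 (Gm42418 in GENCODE M21; 39846958 to 39848788, plus strand, GRCm38) and Gm26917 (39843013 to 39846341, plus strand) together held 69.7 and 72.2% of the lincRNA counts after cisplatin and 91.6 and 59.3% after saline. Ribosomal RNA repeats are present in many near-identical copies, and the sources used here do not say how reads matching several places were counted, so both values are uncertain. Yam1 also shares exon sequence on the opposite strand with AY036118 and CT010467.1, whose reads cannot be told apart from its own if counting ignored strand. Without these genes the lincRNAs took 0.356 and 0.341% of all counts after cisplatin and 0.202 and 0.216% after saline. These shares are of raw counts without TMM scaling, and they include 2 genes with large rises. Gm12840 had 13209 and 13991 counts after cisplatin against 696 and 806, and RP23-148L8.3 had 9708 and 10218 against 942 and 1343.

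Yam1 had 16572 and 26525 counts after cisplatin and 435000 and 39862 after saline. Saline replicate 1 stood 10.9 times above saline replicate 2 in counts, and the groups did not overlap. Its log2 fold change was -3.87 (SE 0.64; edgeR quasi-likelihood adjusted p = 2.05e-05), but -0.94 without saline replicate 1 and -4.78 without saline replicate 2. Gm26917, which lies immediately upstream, had 152630 and 178868 counts against 35846 and 45418. All cisplatin values were above all saline values, and the log2 fold change was 1.81 (SE 0.05; edgeR quasi-likelihood adjusted p = 7.06e-17). The ratio of Yam1 to Gm26917 counts was 0.109 and 0.148 after cisplatin and 12.1 and 0.878 after saline.

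The other nuclear ribosomal RNA genes looked at were Rn18s-rs5, n-R5-8s1 and Gm24601 (log2 fold change -2.43, SE 0.27). All were lower after cisplatin, as Yam1 was and Gm26917 was not. Of the mitochondrial ones, mt-Rnr2 was higher (0.76, SE 0.17) and mt-Rnr1 did not pass (0.28, SE 0.25). Rn18s-rs5, a related 18S sequence on the same chromosome, had 2089 and 2738 counts against 61579 and 35983 (log2 fold change -4.63, SE 0.24). n-R5-8s1, a 5.8S gene, had 3114 and 5685 against 22043 and 13660 (-2.32, SE 0.23). In both Rn18s-rs5 and n-R5-8s1, the higher saline library was again replicate 1. Whether reads of these genes are separate from those of Yam1 was not tested, so their falls may not be independent of it. The libraries had been depleted of ribosomal RNA, and the part of that step in the values was not tested.

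**Figure D3:**
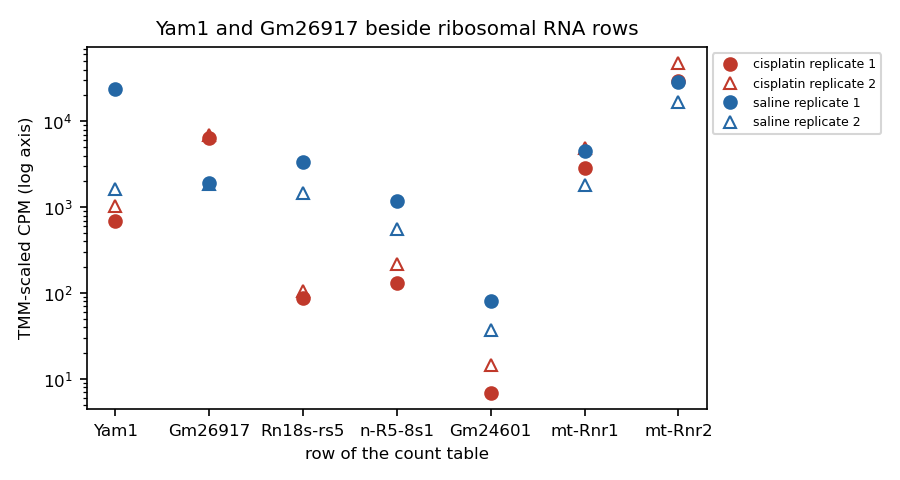
TMM-scaled CPM (log axis) of Yam1, Gm26917 and 5 ribosomal RNA genes in each of the 4 libraries; circles are replicate 1 and triangles replicate 2. Yam1 is high in saline replicate 1 alone (23509 CPM, against 698 to 1631 in the other libraries), whereas the replicates of Gm26917 lie close together in both groups.

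Among the other lincRNAs the replicates were mostly close. The median absolute log2 ratio between replicates, over all 159, was 0.12 for cisplatin and 0.16 for saline. A gap of at least 2-fold was found for Gm13855 between the cisplatin libraries and for Gm26606 and Yam1 between the saline libraries.

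The largest rise belonged to Gm13056, an uncharacterised transcript of 2 exons on chromosome 4 (141278439 to 141279794, plus strand). It had 232 and 254 counts after cisplatin and 3 and 7 after saline. It was thus near the limit of detection in saline kidney, where a floor of 3 counts corresponds to 0.111 to 0.140 CPM before scaling. The log2 fold change was 5.36 (SE 0.28; edgeR quasi-likelihood adjusted p = 1.19e-12). Its nearest coding gene, Epha2, which encodes a receptor tyrosine kinase for ephrins and starts 22801 bases away on the same strand, rose from 5.36 ± 1.16 to 121 ± 8.21 CPM (SD, n = 2; log2 fold change 4.47).

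5830416P10Rik is Mirt1 in M21, a lincRNA named for its rise after myocardial infarction (chromosome 19, 53443230 to 53464796, minus strand). It had 278 and 243 counts after cisplatin against 12 and 13 after saline, with no overlap. The log2 fold change was 4.16 (SE 0.24; edgeR quasi-likelihood adjusted p = 6.65e-12). Dusp5, which encodes a nuclear phosphatase of ERK kinases and starts 64313 bases away in the opposite direction, rose from 1.05 ± 0.0409 to 29.4 ± 3.80 CPM (log2 fold change 4.80). Mirt1 shares exon sequence with 4833407H14Rik on the other strand, and the sources used here do not say whether counting was strand-specific.

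Of the 14 largest rises, Gm12840 and RP23-148L8.3 were at a far higher level than the others. Gm12840 (chromosome 4, 117700188 to 117700923, plus strand) stood at 556 and 539 CPM after cisplatin and at 37.6 and 33.0 CPM after saline. RP23-148L8.3 (Gm20186 in M21; chromosome 6, 18845910 to 18848207, minus strand) stood at 409 and 394 CPM against 50.9 and 55.0 CPM. No cisplatin value of either came near a saline value, and the log2 fold changes were 3.96 (SE 0.07; edgeR quasi-likelihood adjusted p = 2.88e-19) and 2.92 (SE 0.07; 2.99e-18). Per length they were the most abundant lincRNAs after cisplatin apart from Gm26917 and Yam1, with mean FPKM of 606 for Gm12840 and 299 for RP23-148L8.3, beside 298 for RP24-230J14.4. Dmap1, the coding gene nearest to Gm12840, did not pass (log2 fold change -0.13, SE 0.11). Lsm8, whose product is part of the ring that binds U6 small nuclear RNA, starts 372 bases from RP23-148L8.3 in the opposite direction and rose by 0.84 (SE 0.11). RP23-148L8.3 also overlaps exons of Gm26809 on the other strand.

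Gm26799 lies 91 bases from the start of Rad18, the ubiquitin ligase that marks stalled replication forks for bypass of DNA lesions, and the pair is read in opposite directions. The lincRNA had 169 and 148 counts after cisplatin and 8 and 9 after saline (log2 fold change 3.99, SE 0.29). Rad18 itself rose from 3.54 ± 0.427 to 8.05 ± 0.543 CPM (SD, n = 2; log2 fold change 1.20, SE 0.17). Both cisplatin libraries exceeded both saline libraries for each gene of the pair, and the change was larger for the lincRNA.

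Slmapos2 had 341 and 434 counts after cisplatin and 16 and 33 after saline (log2 fold change 3.77, SE 0.20). 3300005D01Rik had 329 and 316 counts against 20 and 29 (3.50, SE 0.19), while its nearest coding gene Snx9, which encodes an endocytic sorting nexin, fell by 0.85. These too had no overlap between groups. The other 7 of the 14 largest rises had log2 fold changes from 1.95 to 2.47 and were Gm12976, Gm26909, BC051077, Gm15675, 2310015A10Rik, Gm26549 and 5430416N02Rik. Gm12976 starts 561 bases from C77080, which rose by 1.44. Vsig10, 3438 bases from BC051077, and Sec31a, 13301 bases from 5430416N02Rik, did not pass, at log2 fold changes of 0.07 and 0.02. 2310015A10Rik lies 19831 bases from Zfp36l1, whose product promotes mRNA decay and whose transcript rose by 1.84. Gm26909 shares exon sequence on the opposite strand with Polb, the DNA polymerase of base excision repair, which rose by 0.48. Gm15675 does so with Gm15674, and 5430416N02Rik with Gm27286, Gm27553, Gm27997 and Gm28030. Reads of such overlapping genes cannot be told apart if counting ignored strand.

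**Figure D4:**
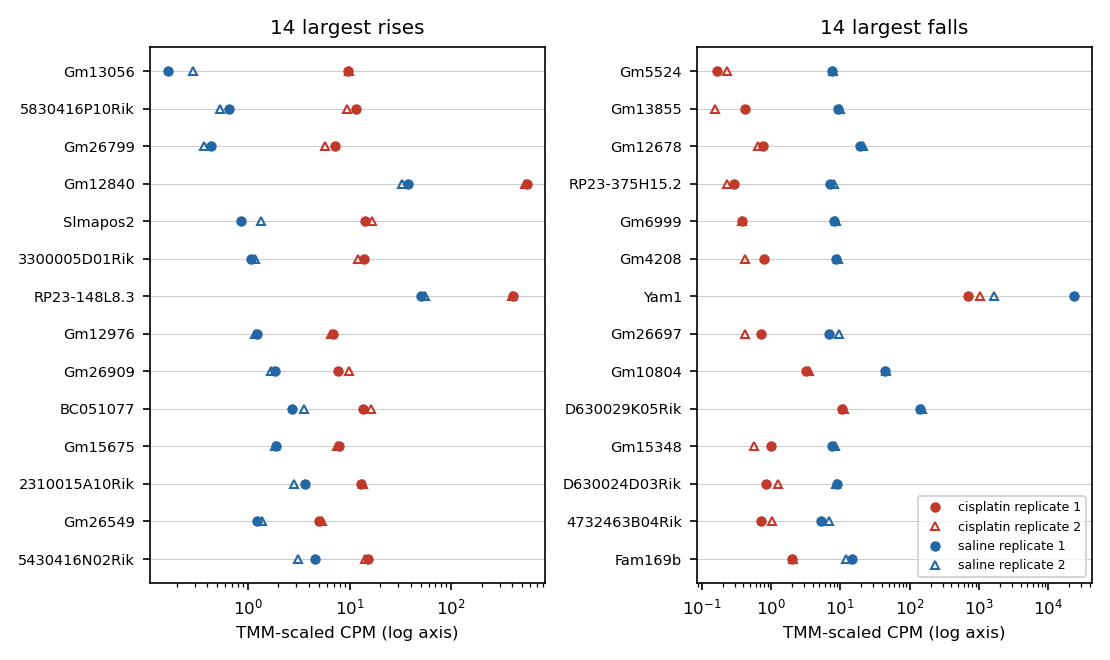
TMM-scaled CPM (log axis) in each library for the 14 largest rises (left) and the 14 largest falls (right); red is cisplatin, blue saline, circles replicate 1 and triangles replicate 2. In every one of the 28 the colours do not overlap, and only Yam1 has saline replicates far apart.

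Among the 14 largest falls, D630029K05Rik had the highest saline level apart from Yam1 (chromosome 10, 116964707 to 116969105, plus strand). It had 251 and 295 counts after cisplatin and 2625 and 3635 after saline, or 10.6 and 11.4 against 142 and 149 CPM. The groups stood more than 10-fold apart with replicates close together, and the log2 fold change was -3.73 (SE 0.07; edgeR quasi-likelihood adjusted p = 2.69e-19). Gm10804 (chromosome 2, 93452819 to 93469871, plus strand) behaved alike, with 75 and 92 counts against 803 and 1115 (-3.73, SE 0.11). Its nearest coding gene Cd82, a tetraspanin, rose by 0.53.

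The 5 largest falls each left 18 counts or fewer in either cisplatin library. Gm5524 (chromosome 1, 27884046 to 27902396, plus strand) had 4 and 6 counts against 140 and 191 after saline (log2 fold change -5.22, SE 0.30; edgeR quasi-likelihood adjusted p = 4.97e-12). Gm13855 had 10 and 4 against 173 and 238 (-5.06, SE 0.29), and -5.91 without cisplatin replicate 1. Gm12678 had 18 and 17 against 361 and 520 (-4.85, SE 0.18). RP23-375H15.2 (4921539H07Rik in M21) and Gm6999 followed at -4.83 (SE 0.29) and -4.42 (SE 0.26). No cisplatin library reached the level of a saline library in any of these. Gm6999 shares exon sequence on its own strand with Olfm4, a glycoprotein gene, so its reads may be divided between these genes. Gm5524 shares exon sequence with another gene on the opposite strand. Reads of Gm5524 and of that gene cannot be told apart if counting ignored strand.

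Several coding genes beside these falls were lower too. Slc35b4, a nucleotide sugar carrier of the Golgi, starts 2121 bases from Gm13855 and fell by 1.59 in log2 units. Grhpr, which detoxifies glyoxylate, is the coding gene nearest to Gm12678 and fell by 1.43. Gm26697 had 17 and 11 counts against 126 and 232 (log2 fold change -3.85, SE 0.28) and overlaps exons of Slc27a2 on the opposite strand. Slc27a2, a fatty acid carrier of the proximal tubule, fell by 2.70. 4732463B04Rik (-2.78, SE 0.26) overlaps Acot3 and Acot4, peroxisomal acyl-CoA thioesterases, in the same way, and Acot3 fell by 2.03. For both overlapping pairs, reads of the lincRNA and of the coding gene cannot be told apart if counting ignored strand. Gm15348 (-3.34), whose neighbour Atp11a (a phospholipid flippase) fell by 1.99, and D630024D03Rik (-3.05), whose neighbour Cpeb4 (a regulator of mRNA polyadenylation) fell by 0.97, share no exon sequence with them. Gm4208 (-3.87) and Fam169b (-2.69) completed the 14, and M21 lists the latter as protein-coding. Fam169b also shares exon sequence with Gm16157 and Gm16158 on the opposite strand. Pgpep1l, the coding gene nearest to Fam169b, did not pass (-0.26, SE 0.43).

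Tubule markers fell in the same libraries, and markers of neutrophils and of fibroblasts and mural cells rose. All 10 proximal tubule markers were lower, with a median log2 fold change of -2.80 and a summed level of 18389 and 17766 CPM after cisplatin against 47844 and 45981 CPM after saline, and all 7 of the thick limb and distal tubule were lower (median -1.99). Of the collecting duct list 4 of 6 were lower and 2 higher. All 7 tested neutrophil markers of 8 were higher, at a summed 36.9 and 33.8 CPM against 4.27 and 2.99 CPM. For macrophages and monocytes the sums were 217 and 230.4 against 90.5 and 98.1 CPM, with 5 of 8 higher and 1 lower, and for fibroblasts and mural cells 870.4 and 875 against 332 and 347 CPM, with 6 of 6 higher. Podocyte markers were higher in 4 of 4 and erythroid markers lower in 5 of 5. Endothelial markers were higher in 4 of 6 and lower in 1, and T and B cell markers higher in 2 of 5 tested, with 3 not called. No marker of any list was at 0 in all libraries. The part of these shifts in the lincRNA changes was not tested, and in whole kidney fewer cells of a type and less RNA per cell cannot be told apart.

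The annotation gave further features the selection had not used. GENCODE M21 held 155 of the 159 by gene identifier; Gm4790, 6230415J03Rik, Gm37494 and Gm14290 were not matched. M21 calls 122 of them lincRNA, 12 bidirectional promoter lncRNA, 8 antisense, 6 processed transcript, 3 transcribed unprocessed pseudogene, 1 sense intronic and 3 protein-coding. The median summed exon length was 2762 bases (range 132 to 10205) and the median number of exons 3, and 21 had a single exon. Exon overlap with another gene was present in 59, of which 23 were higher and 20 lower (72.9% called). Among the 96 without overlap 37 were higher and 38 lower (78.1% called). The share was 73.6% over all genes tested and 80.7% over those with at least 300 counts. Both directions were seen with and without overlap, and whether the shares differ was not tested.

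Nearness to a coding gene was common: 42 of the 155 started within 1 kb of a coding start, and 31 of these were divergent. Of the 31 divergent lincRNAs 12 were higher, 16 lower and 3 did not pass, which is 90.3% called. The share was 73.6% over all genes tested and 80.7% over those with at least 300 counts. Among the other 124 matched lincRNAs 48 were higher and 42 lower (72.6% called). Whether the shares differ was not tested.

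In divergent pairs the lincRNA and its neighbour mostly had the same sign. Both genes were called in 25 of the 31 pairs, with 6 pairs both higher, 13 both lower and 6 opposite. Across the 31 pairs, measured in the same 4 libraries, Spearman's rho between the fold changes was 0.51 and Pearson's r 0.53. Over all 123 pairs with a tested neighbour rho was 0.30, with 18 both higher, 32 both lower and 26 opposite among the 76 with both called. For the 69 pairs from 1 to 100 kb apart rho was 0.35, and for the 13 pairs farther apart 0.07. The 8 pairs within 1 kb on opposite strands whose starts face each other had a rho of -0.50. Of the 4 with both genes called 3 went opposite ways and 1 was higher in both. In all 8 the lincRNA overlaps exons of its neighbour, so their reads cannot be told apart if counting ignored strand. The lincRNA had the larger absolute fold change in 24 of the 31 divergent pairs and in 69 of all 123.

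Some pairs, chosen after their values were seen, show the range. Pantr1 and Pou3f3, a POU transcription factor of the distal nephron, start 926 bases apart, and Pantr1 had 42 and 69 counts after cisplatin against 154 and 246 after saline. Pantr1 fell by 2.05 (SE 0.20) and Pou3f3 by 0.53. Lhx1os had 41 and 59 counts against 168 and 179 and fell by 2.02, while Lhx1, a homeobox gene of the early nephron 125 bases away, fell by 0.68. 2500002B13Rik and Sap30, a subunit of a histone deacetylase complex, start 194 bases apart and fell by 2.08 and 2.34. In the opposite sense, 4833418N02Rik rose by 1.81, from 80 and 121 to 405 and 406 counts, while Ttc7, 72 bases away, fell by 1.53. C030037D09Rik rose by 1.09 while Msi2, an RNA-binding protein gene 132 bases away, fell by 1.44. Each of these lincRNAs had no overlap between groups.

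**Figure D5:**
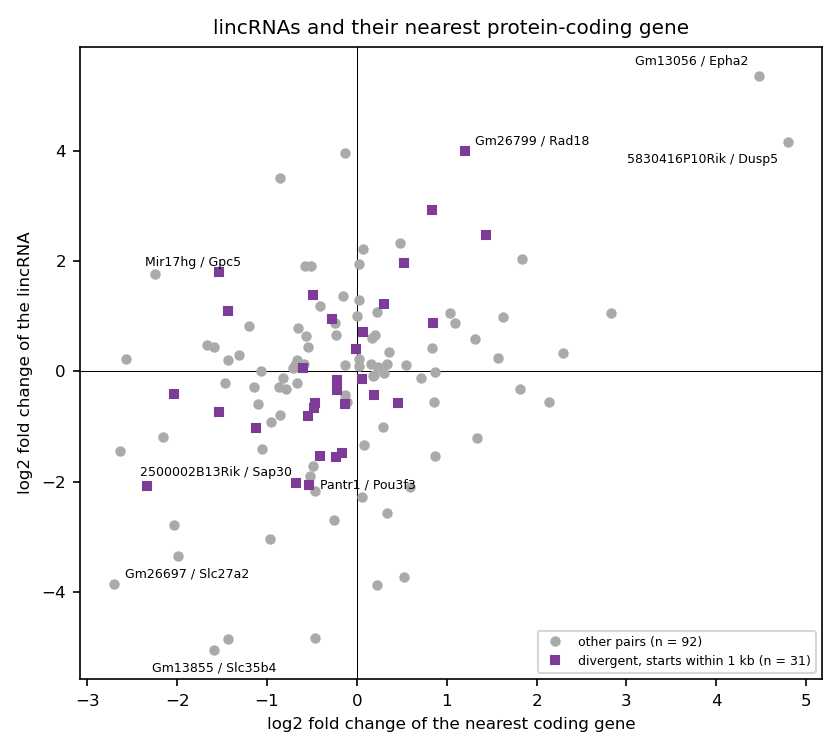
Log2 fold change of each lincRNA (y axis) against that of its nearest protein-coding gene (x axis), cisplatin over saline, for 123 pairs; squares are the 31 divergent pairs with starts within 1 kb. Most squares lie towards the lower left or upper right (rho 0.51), and the pairs Gm13056 with Epha2 and 5830416P10Rik with Dusp5 stand at the upper right corner.

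6 of the lincRNAs span 14 annotated miRNA genes on their own strand, which give 25 mature sequences. Mir17hg, the host of the miR-17-92 cluster, which is known for its induction by Myc, had 490 and 569 counts after cisplatin and 113 and 157 after saline (chromosome 14, 115042879 to 115046727, plus strand). It rose by 1.76 on the log2 scale without overlap between groups (SE 0.12; edgeR quasi-likelihood adjusted p = 4.93e-11). The main arms of its cluster are shown from the RefSeq miRNA table (GRCm38.p6) because they are the products this host is known for. Capitals mark the seed, bases 2 to 8, which sets target choice.
mmu-miR-17-5p: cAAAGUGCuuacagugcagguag
mmu-miR-20a-5p: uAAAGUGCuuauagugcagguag
mmu-miR-18a-5p: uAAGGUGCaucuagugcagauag
mmu-miR-19a-3p: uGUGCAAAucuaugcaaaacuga
mmu-miR-19b-3p: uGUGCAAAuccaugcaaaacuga
mmu-miR-92a-3p: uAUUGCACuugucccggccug
miR-17-5p and miR-20a-5p share a seed, as do miR-19a-3p and miR-19b-3p, and the seeds of miR-18a-5p and miR-92a-3p are each found once in this set. The libraries measured the host transcript, and mature miRNAs were not measured. Gpc5, the nearest coding gene, encodes a glypican and fell, from 1.19 and 1.15 CPM after saline to 0.253 and 0.231 CPM after cisplatin (log2 fold change -2.25, SE 0.46).

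The other hosts did not move as a group. 2900076A07Rik, which spans Mir1839, was higher (1.16, SE 0.18), with 210 and 182 counts against 58 and 95. E130102H24Rik, which spans Mir101a, was lower (-1.45, SE 0.14), with 114 and 109 counts against 221 and 306. 6720427I07Rik, the host of let-7a-1, let-7d and let-7f-1, and Gm27028, which spans Mir30c-2, did not pass (-0.18, SE 0.08, and -0.11, SE 0.17). Without saline replicate 1, however, 6720427I07Rik was called lower, at -0.29. The let-7 arms under the former share 1 seed:
mmu-let-7a-5p: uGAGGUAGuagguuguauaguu
mmu-let-7d-5p: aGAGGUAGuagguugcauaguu
mmu-let-7f-5p: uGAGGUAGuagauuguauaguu
Mir143hg (Carmn in M21), a transcript of smooth muscle and mural cells named for the miR-143 and miR-145 genes, had 269 and 318 counts against 241 and 356 and did not pass (-0.23, SE 0.12; edgeR quasi-likelihood adjusted p = 0.08), although all 6 fibroblast and mural markers rose. Without saline replicate 1 it was called lower, at -0.32. Gm26870, which stood on the list of host transcripts and holds no annotated miRNA, rose by 1.31 (SE 0.15). Its exons overlap repeated gene models on the opposite strand.

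Few symbols on the lists of known lincRNAs were among the lincRNAs chosen here. A listed symbol can be absent through its biotype in the count table, its exclusion by name or its counts. Some genes were also listed under several names, so the list lengths overstate the number of genes. The X inactivation centre gave 2 of 5. Ftx (X chromosome, 103560907 to 103623790, minus strand), an activator of Xist that also spans Mir421 and Mir374b, had 219 and 240 counts after cisplatin and 341 and 490 after saline. It fell by 1.06 (SE 0.11; edgeR quasi-likelihood adjusted p = 4.69e-08), whereas Jpx, its neighbour in the locus, had 77 and 94 against 66 and 77 and did not pass (0.04, SE 0.21). The Ftx groups did not overlap and the Jpx groups did. The list of imprinted lincRNAs gave 0 of 10.

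Conserved lincRNAs with published functions gave 6 of 45, of which 1 rose, 2 fell and 3 did not pass. Mirt1 and Pantr1 are described above. 1700020I14Rik, known as Cyrano and for the turnover of miR-7, had 4159 and 4232 counts against 3899 and 5151, or 175 and 163 against 211 and 211 CPM. It was lower by a small margin (-0.32, SE 0.06; edgeR quasi-likelihood adjusted p = 8.48e-05), and stood at 0.05 with library size alone. Lincpint, a p53-induced transcript, had 351 and 333 counts against 216 and 326. Its CPM overlapped between groups and the change did not pass (0.13, SE 0.12; edgeR quasi-likelihood adjusted p = 0.318). Snora26, whose identifier M21 lists as Dancr, a suppressor of differentiation, stood at 0.12 (SE 0.10) and Epb4.1l4aos at 0.35 (SE 0.18), and neither passed. All 3 were called higher with library size alone and with FPKM at either pseudocount. Snora26 and Epb4.1l4aos were also called higher with upper-quartile scaling (0.23 and 0.46). The same held for Snora26 without saline replicate 1 (0.26) and for Epb4.1l4aos without saline replicate 2 (0.53). 1810058I24Rik, which encodes the small mitochondrial protein Stmp1, rose from 17.5 ± 0.858 to 24.5 ± 0.982 CPM (0.48, SE 0.10).

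Per length, the most abundant lincRNAs after Yam1, Gm26917, Gm12840, RP24-230J14.4 and RP23-148L8.3 were Gm29562, Gm23925 and Gm28872, with mean FPKM of 52.4, 27.0 and 25.3 over the 4 libraries. RP24-230J14.4, a single exon of 302 bases, rose by 0.82 (SE 0.06), from 72.5 and 74.7 to 126 and 134 CPM. Gm29562 was lower by 0.19 (SE 0.06), the smallest change that passed, and its sign turned to 0.18 with library size alone and to 0.08 with FPKM. Without cisplatin replicate 2 it did not pass, at -0.09. Gm23925, of 132 bases, did not pass (-0.22, SE 0.17), with 121 and 139 counts after cisplatin and 128 and 131 after saline. It shares exon sequence on its strand with Snhg17 and with another gene listed as Gm23925, so its reads may be divided between these genes. Gm28872, of 158 bases, fell by 2.10 (SE 0.19) and overlaps Rnu11, the U11 RNA of the minor spliceosome, on the opposite strand.

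Some abundant lincRNAs changed little. C330006A16Rik stood at 60.7 and 63.5 CPM after cisplatin and 61.7 and 61.4 CPM after saline, and Gdap10 at 31.2 and 29.3 against 27.8 and 29.8 CPM. Their groups overlapped, and the log2 fold changes were 0.01 (SE 0.06) and 0.07 (SE 0.09), relative to the TMM scale. With library size alone both were called higher, at 0.38 and 0.43. With FPKM both were called higher too, at 0.28 and 0.33 (pseudocount 0.1) and at 0.27 and 0.27 (pseudocount 1). The smallest changes that passed, beside Gm29562, were those of Gm20342 (0.23, SE 0.08), Gm26905 (-0.28, SE 0.06) and 1300002E11Rik (-0.29, SE 0.13). Gm26905 was at 227 and 225 CPM against 271 and 279 CPM, with replicates much closer to each other than the groups were. Gm20342 did not pass without cisplatin replicate 1 (0.18) or saline replicate 2 (0.22), nor did 1300002E11Rik (-0.16 and -0.26). DESeq2 called neither, at an adjusted p of 0.155 and 0.201. The replicate block also ended the call of 1300002E11Rik (edgeR quasi-likelihood adjusted p = 0.0526), as did upper-quartile scaling and the filter of 1 CPM in 2 libraries. Of the 120 calls, 85 (48 higher and 37 lower) kept their direction and passed in each of the 14 other fits.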

How the data were processed

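Raw read counts per gene and FPKM values were deposited by the authors, 1 column per library for cisplatin and saline, 2 libraries each. The submitters' processing notes name GRCm38 as the build and TopHat2, bcl2fastq and edgeR as tools, without versions. What counted the reads, whether by strand, and with which annotation, the sources used here do not say. Nothing states which mice gave a library or whether tissue was pooled, so p-values measure the spread between these libraries.

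The lincRNAs, the gene lists and the rule for named genes were chosen with earlier results of these data known. Named were the 14 strongest rises and the 14 strongest falls among genes called without overlap, the 8 highest mean FPKM, the 4 smallest called changes, the 4 uncalled genes with the highest counts, list members, miRNA hosts, genes at the minimum, and tested nearest coding genes within 100 kb of those named by fold change, 1 of which is not reported here.

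Counts were tested over all genes in edgeR 4.0.16 (R 4.3.3; filterByExpr, TMM factors 1.149, 1.122, 0.861 and 0.901, quasi-likelihood test, 2 residual degrees of freedom, Benjamini-Hochberg adjusted p under 0.05). The biological coefficient of variation was 6.4%. Replicates differed by more than sampling noise, with a chi-square per degree of freedom of 11.5 (cisplatin) and 36.6 (saline) over all genes. Over the lincRNAs it was 10.03 and 1149.35, and without Yam1 and Gm26917 it was 1.83 and 2.23. CPM is TMM-scaled, and floors cover counting error only. Standard errors of fold changes come from the quasi-likelihood test and include the spread between replicates. FPKM served for levels per length and, as log2(FPKM + pseudocount), for limma 3.58.1. Alternatives were other scalings, filters and minimums, DESeq2 1.42.0, a replicate block, each library left out, and fits without ribosomal RNA genes. The test was checked on simulated data. Identifiers were matched without version to GENCODE M21, and sequences came from RefSeq tables. Python 3.11.15 and matplotlib 3.10.9 made the plots.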

Additional observations from a re-analysis of the deposited data

How the results depend on the processing

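After cisplatin 61 lincRNAs were higher and 59 lower, with a median log2 fold change of 0.07. Size factors by relative log expression gave 60 and 60, no filter 62 and 59, a filter of 1 CPM in 2 libraries 62 and 57, DESeq2 49 and 49, and the fit without ribosomal RNA genes 60 and 58 of 157. Upper-quartile scaling gave 68 and 52 and a median of 0.19, and library size alone 85 and 39 and a median of 0.43. FPKM gave medians of 0.33 (pseudocount 0.1) and 0.21 (pseudocount 1). These medians moved with that of all genes tested, which was 0.16, 0.41, 0.28 and 0.15. Leaving out each library in turn gave 58 to 61 higher, 51 to 57 lower and medians of 0.02 to 0.11. A minimum of 200 counts kept 217 genes (85 higher, 73 lower, median 0.11) and one of 600 counts kept 80 (31 and 28). Requiring at least 2-fold left 33 and 36. With library size alone Gm29562 turned to 0.18, Gm26905 to 0.08, 1300002E11Rik to 0.07 and 1700020I14Rik to 0.05. Gm29562 also turned to 0.08 with FPKM at either pseudocount. Yam1 depended on saline replicate 1 (-0.94 without it). Replicate numbers share no stated animal or day, and deviations of same-numbered libraries correlated at -0.039. A replicate block gave 62 and 58, median 0.07, and ended 1 call among the named lincRNAs, that of 1300002E11Rik. The values of the 52 named lincRNAs were counted once for each lincRNA in each other fit. Of these values 680 kept their call status, 18 lost the call with the same sign and 22 gained it. The other 6, from called lincRNAs, changed sign, and of them only Gm29562 with library size alone still passed. Uncalled lincRNAs with small negative values also turned positive with library size alone, which shifts every gene upward. Depth limits the largest changes most: Gm13056 rests on 3 and 7 saline counts, and Gm5524 on 4 and 6 cisplatin counts.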
